A study of Homo sapiens with 30 samples.

Results

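The introns of the longest protein-coding genes carried both repressive histone marks profiled in HEK293T cells, each with its own distribution over the genes. A peak was taken when its summit lay on chromosomes 1 to 22, inside a protein-coding gene longer than 500 kb, outside every annotated exon and more than 1 kb from any transcription start site (TSS). In all, 39792 of the 431864 peaks in 5 lists met this rule. Of the 19229 protein-coding genes on these chromosomes, 310 were long enough. HEK293T is an established line from human embryonic kidney that expresses SV40 large T antigen. All cells were transfected for 48 h with antisense oligonucleotides (ASOs), which lower the amount of a target RNA. H3K27me3 ChIP-seq was done after a negative control ASO (NC), a LINC00641 ASO or a SETD5-AS1 ASO, and H3K9me3 ChIP-seq after NC or a mix of LINC00662 ASOs, and each of these 5 ChIP groups and its input group (chromatin without immunoprecipitation) had 3 replicates, 30 samples in all. The knockdown groups are called ΔLINC00641, ΔSETD5-AS1 and ΔLINC00662 below. Replicates were merged before peaks were called, so each ChIP group gave 1 list, and the spread between replicates is unknown for every value below. Gene length has no gap at the 500 kb limit. Just outside it, CACNA2D1 (498 kb), ITPR2 (498 kb) and DIAPH3 (498 kb) held no H3K27me3 NC intronic peaks and 6, 4 and 2 H3K9me3 NC peaks. Just inside it, ANO5, SPOCK3 and KCNAB1 (each 501 kb) held 33, 4 and 0 H3K27me3 and 9, 18 and 2 H3K9me3 NC peaks.

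H3K27me3 is placed by the Polycomb repressive complex PRC2 and tends to form broad domains over developmental genes that a cell keeps silent. H3K9me3 is placed by enzymes such as SUV39H1 and SETDB1 and is best known from repeats and constitutive heterochromatin. Very long genes are mostly introns. Many of them encode adhesion molecules, ion channels and receptors of neurons, and several lie at common fragile sites.

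The sequence under a few peaks, chosen as extremes of strength or GC content, is given as examples and does not describe the usual peak. Each window below is 200 bases of GRCh37 (the coordinates of hg19) centred on the summit, plus strand, with CpG in capitals. The strongest peak of this kind in each of the 5 lists, by −log10 q, lay on a tandem repeat. That of all 3 H3K27me3 lists lay in an intron of ADARB2, a catalytically inactive relative of the RNA-editing deaminases (window chr10:1282045-1282244). It repeats with a unit of 24 bases, at which 96% of its bases match the base 1 unit away. That of both H3K9me3 lists lay in an intron of PTPRN2, a receptor-type phosphatase of secretory granules (chr7:157940900-157941099), with a unit of 38 bases. Another repeat, with a unit of 51 bases, came from SDK1, an immunoglobulin adhesion molecule (chr7:4016373-4016572), the most GC-rich of the 100 strongest H3K9me3 NC peaks.
ADARB2: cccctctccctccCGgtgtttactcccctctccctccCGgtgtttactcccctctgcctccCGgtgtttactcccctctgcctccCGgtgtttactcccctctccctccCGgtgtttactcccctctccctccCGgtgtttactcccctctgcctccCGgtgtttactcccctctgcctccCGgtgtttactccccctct
PTPRN2: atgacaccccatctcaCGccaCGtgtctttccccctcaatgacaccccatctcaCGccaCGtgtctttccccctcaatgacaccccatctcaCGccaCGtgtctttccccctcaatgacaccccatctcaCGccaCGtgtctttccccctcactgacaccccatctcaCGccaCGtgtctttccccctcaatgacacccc
SDK1: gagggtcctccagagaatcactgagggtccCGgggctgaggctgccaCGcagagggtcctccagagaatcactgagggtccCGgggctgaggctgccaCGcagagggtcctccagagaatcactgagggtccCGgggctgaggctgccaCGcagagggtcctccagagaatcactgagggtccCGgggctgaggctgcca
The other windows were not tandem repeats. PPP2R2B, a regulatory subunit of protein phosphatase PP2A, held the strongest H3K27me3 NC peak once input-rich peaks were left out (chr5:146257138-146257337). FGF14, a fibroblast growth factor homologue that binds sodium channels, held that of ΔSETD5-AS1, with 17 CpG (chr13:102568518-102568717). The least GC-rich of the 100 strongest H3K9me3 NC peaks lay in DNAH14, a dynein heavy chain (chr1:225121484-225121683).
PPP2R2B: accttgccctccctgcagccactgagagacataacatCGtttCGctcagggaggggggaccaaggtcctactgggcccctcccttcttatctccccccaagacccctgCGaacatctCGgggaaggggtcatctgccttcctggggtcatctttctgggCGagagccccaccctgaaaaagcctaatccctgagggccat
FGF14: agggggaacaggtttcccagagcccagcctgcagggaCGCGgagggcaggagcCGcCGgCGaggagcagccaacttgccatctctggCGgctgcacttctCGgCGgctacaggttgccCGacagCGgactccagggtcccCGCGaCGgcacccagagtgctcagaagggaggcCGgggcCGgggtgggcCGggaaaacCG
DNAH14: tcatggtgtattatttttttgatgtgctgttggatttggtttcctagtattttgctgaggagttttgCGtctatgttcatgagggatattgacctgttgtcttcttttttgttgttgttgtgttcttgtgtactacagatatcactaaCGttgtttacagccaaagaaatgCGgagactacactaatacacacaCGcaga

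The tandem repeats stood out in the input as well. The input is given relative to the base level of a list, its lowest local input, which is the mean fragment coverage of the genome. At the ADARB2 summit, 154 fragments lay over an input of 6.28 times this base level in NC, and the summits of the overlapping peaks held 187 fragments in ΔLINC00641 and 206 in ΔSETD5-AS1. At the PTPRN2 summit, 1738 fragments lay over an input of 123 times the base level in NC and 1530 over 112 times in ΔLINC00662. A raised input means that more reads from these cells were placed there than elsewhere, with or without the mark, and its part in the peak strength was not tested. Such places were few. An input above 5 times the base level, called input-rich here, occurred at 0.0273% of the H3K27me3 NC peaks and 0.844% of the H3K9me3 NC peaks of the long genes.

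Windows of the same length were compared over all these peaks. The median GC content of the windows was 47% for H3K27me3 NC and 49.5% for H3K9me3 NC, against 38% in 24760 windows placed every 10 kb along the same introns. Windows without any CpG made up 15.1% and 13.0% of the peaks of the 2 marks and 32.2% of the introns. A run of 10 CA or TG dinucleotides was found in 0.455% and 0.219% of the NC windows of H3K27me3 and H3K9me3, and in 0.533% of the intron windows. Tandem repeats were rare as well. At least 80% of bases matched the base 1 unit away, for a unit of 2 to 60 bases, in 0.255% of the H3K27me3 NC windows. The share was 0.658% for H3K9me3 NC and 0.153% for the intron windows. For NC peaks in introns of shorter genes, the median GC content was 48% for H3K27me3 and 50% for H3K9me3. Of these windows, 16.25% and 11.9% held no CpG, and 0.423% and 0.479% were tandem repeats. The GC and CpG values were thus not particular to the long genes.

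The long genes held a larger part of H3K27me3 than of H3K9me3. Of the NC peaks on chromosomes 1 to 22, 14.9% (10981 of 73667) were in this class for H3K27me3 and 7.84% (5924 of 75538) for H3K9me3. The density was 44.4 peaks per Mb of intron that met the rule for H3K27me3 NC, and 12.5 in the introns of shorter protein-coding genes, a ratio of 3.56 (95% interval 3.46 to 3.65). For H3K9me3 NC the densities were 23.98 and 22.1 per Mb, a ratio of 1.09 (1.06 to 1.12). These intervals cover counting error alone and treat each peak as an independent count. The ratios after knockdown were 3.38 in ΔLINC00641, 3.29 in ΔSETD5-AS1 and 1.14 in ΔLINC00662. GC content differed between the gene classes, 38.6% over the introns of the long genes and 41.9% over those of shorter genes, and averaging within 5 groups of GC content gave 3.88 for H3K27me3 and 1.08 for H3K9me3. Within the groups, the H3K9me3 ratio was 0.918 and 0.928 in the 2 GC-poorest, which hold 37.5% and 26.1% of the intron of the long genes, and 3.01 in the GC-richest. It also turned to 0.848 when peaks with a −log10 q under 5 were left out, so its direction depended on GC content and on the weak peaks.

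The high H3K27me3 density did not describe a usual long gene. The median gene held 1 H3K27me3 NC peak (1.38 per Mb), 137 of the 310 genes held none and 62 held 1 to 3. At the other end, 44 genes with 50 peaks or more held 89.2% of all H3K27me3 NC peaks of the class, and 14 genes sufficed for 50% of them. H3K9me3 was spread over almost every gene. The median gene held 13.5 H3K9me3 NC peaks (18.1 per Mb), 308 of 310 genes held at least 1, and 62 genes were needed for 50%. Among the 18919 shorter protein-coding genes, 1380 held an intronic H3K27me3 NC peak and 68 sufficed for 50% of such peaks. For H3K9me3 NC the numbers were 5184 and 880, so this contrast between the marks was not particular to the long genes. The spacing in the long genes also differed between the marks. A further peak of the same list and gene class lay within 10 kb of 94.2% of the H3K27me3 NC peaks, with a median distance of 1.55 kb to the nearest, and of 61.7% of the H3K9me3 NC peaks, with a median of 5.08 kb. Merging peaks within 1 kb took the H3K27me3 NC peaks from 10981 to 6381 and the H3K9me3 NC peaks from 5924 to 5043. Neighbouring peaks, also in the numbers per gene below, therefore need not be separate sites.

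**Figure D1:**
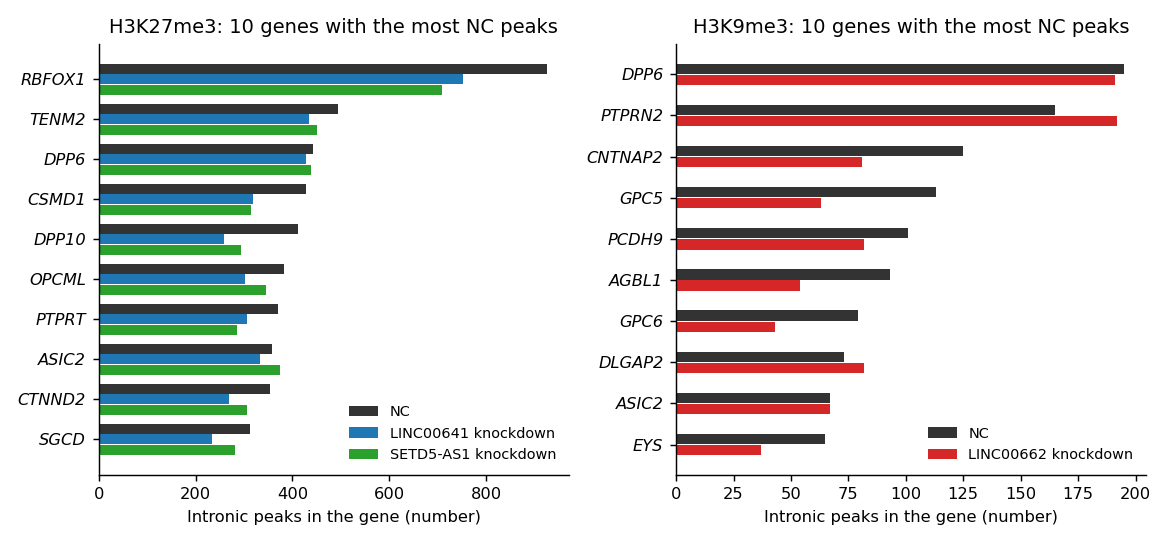
Number of intronic peaks (x axis) in the 10 genes with the most NC peaks of H3K27me3 (left) and H3K9me3 (right), with 1 bar for each pooled list. RBFOX1 leads H3K27me3 with 925, 753 and 708 peaks, and DPP6 leads H3K9me3 NC with 195.

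RBFOX1, a splicing regulator of neurons and muscle and with 2474 kb the longest of the genes, held the most H3K27me3 peaks (chr16:5289803-7763342). The 3 lists held 925 (NC), 753 (ΔLINC00641) and 708 (ΔSETD5-AS1) of them, and the NC peaks covered 33.4% of the gene. TENM2, a teneurin that links synaptic membranes, had 495, 435 and 450. DPP6, an auxiliary subunit of Kv4 potassium channels, had 443, 428 and 439 (chr7:153445218-154685995). The NC peaks covered 50.7% of DPP6, the largest share among these 3 genes, and its numbers in the 3 lists were closest to each other. CSMD1, a transmembrane complement regulator, had 429, 319 and 315. DPP10, a relative of DPP6 with the same role, had 412, 258 and 294. In DPP10, ΔLINC00641 held the fewest peaks, while in CSMD1 the 2 knockdown lists held nearly the same number. The other genes of the leading 10 were the adhesion molecule OPCML (383 in NC), the receptor phosphatase PTPRT (371), the proton-gated channel ASIC2 (357), the catenin CTNND2 (353) and the sarcoglycan SGCD (312). Among these, ASIC2 was the only one with more peaks in a knockdown, 375 in ΔSETD5-AS1.

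Per Mb of intron the order changed. PPP2R2B, with 504 kb one of the shortest genes of the class, had the highest H3K27me3 NC density at 449 per Mb. SORCS3, a sorting receptor of the sortilin family, followed with 437, then TENM2 with 403, DPP6 with 402 and RBFOX1 with 385. In the densest 100 kb of each of these 5 genes, the NC list held between 50 and 58 peaks.

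DPP6 was also first for H3K9me3, with 195 peaks in NC and 191 in ΔLINC00662 (177 per Mb in NC). PTPRN2 held 165 and 192 (163 per Mb in NC), and it was the gene with the largest gain in number among the leading 10 (chr7:157331750-158380515). The median local input at its H3K9me3 NC peaks was 2.57 times the base level, against 1.54 in DPP6. The part of input in these numbers was not tested. CNTNAP2, a neurexin relative that organises axonal channels, held 125 and 81. GPC5 and GPC6, glypicans that carry heparan sulfate, held 113 and 63 and 79 and 43. PCDH9, a protocadherin, held 101 and 82, AGBL1, a carboxypeptidase that removes glutamate from tubulin, 93 and 54, and EYS, a photoreceptor protein, 65 and 37. DLGAP2, a scaffold of the postsynaptic density, held 73 and 82, and ASIC2 held 67 in both lists. Thus 7 of the 10 genes held fewer peaks in ΔLINC00662, 2 held more and 1 the same number. DNAH14 (129 per Mb), PCDH9 (114) and AGBL1 (99.8) followed DPP6 and PTPRN2 in H3K9me3 NC density.

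The genes that led H3K9me3 ranged widely in H3K27me3. GPC5 and PCDH9 each held 3 H3K27me3 NC peaks, DNAH14 held 1, and GPC6 and EYS held none, although each of these 5 genes had 62 or more H3K9me3 NC peaks. CNTNAP2 held 29 and DLGAP2 45, between these genes and those with the most peaks of both marks, PTPRN2 (153 H3K27me3 NC peaks), AGBL1 (178), ASIC2 (357) and DPP6 (443). Over the 310 genes, the H3K27me3 NC density was higher than the H3K9me3 NC density in 71 genes and lower in 235. The Spearman correlation between the 2 densities across the 310 genes was 0.29, which is a description over genes that differ in GC content. SMYD3, a lysine methyltransferase, and KIF26B, a kinesin, both on chromosome 1, held no peak of this kind in any list.

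**Figure D2:**
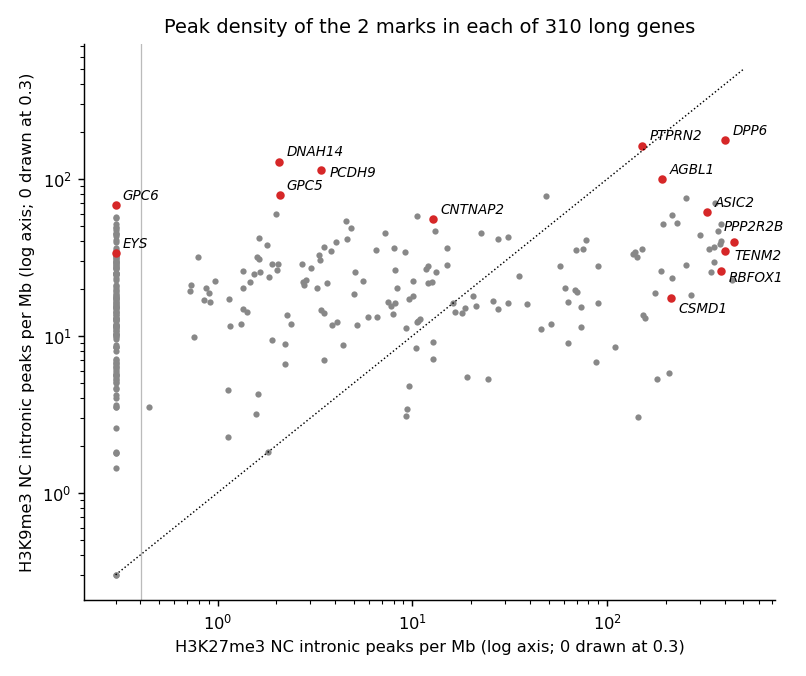
Intronic peaks per Mb of H3K27me3 NC (x axis) and H3K9me3 NC (y axis), both on log axes, with 1 point for each of 310 genes and genes at 0 drawn at 0.3. Points left of the grey line hold no H3K27me3 NC peak, 137 genes in all, while DPP6, PTPRN2 and AGBL1 lie high on both axes.

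The marks met at the same place in part of these introns. Of the H3K27me3 NC peaks, 7.42% (815 of 10981, Wilson 95% interval 6.95 to 7.93%) overlapped an H3K9me3 NC peak by at least 1 bp, with 9.93% over all peaks of chromosomes 1 to 22 and 8.74% in introns of shorter genes. Of the H3K9me3 NC peaks, 14.2% (842 of 5924, 13.3 to 15.1%) overlapped an H3K27me3 NC peak, with 9.93% over all and 5.03% in shorter genes. DPP6 alone held 135 of the 815 peaks, PTPRN2 46, RBFOX1 43 and ASIC2 42. Without DPP6 the shares were 6.45% and 11.9%. H3K27me3 NC peaks were 3.56 times as dense in the introns of the long genes as in those of shorter genes. The part of this density in the share of overlapped H3K9me3 peaks was not tested.

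Taken over all long genes together, both marks were denser toward the 5′ end. Along the gene in steps of 10% of its length, H3K27me3 NC went from 53.5 peaks per Mb in the first step (95% Poisson interval 50.6 to 56.4) to 35.5 in the last (33.1 to 38.0). H3K9me3 NC went from 28.1 (26.1 to 30.3) to 20.7 per Mb. These intervals treat each peak as an independent count and give no spread between genes. The pattern was not shared by every gene. Among the 63 genes with at least 20 H3K27me3 NC peaks, 40 were denser in the first 50% of their length and 23 in the last. Among 109 such genes for H3K9me3 NC the numbers were 67 and 42. After knockdown, 32 of 59 genes in ΔLINC00641, 36 of 66 in ΔSETD5-AS1 and 29 of 57 in ΔLINC00662 were denser in the first 50%.

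**Figure D3:**
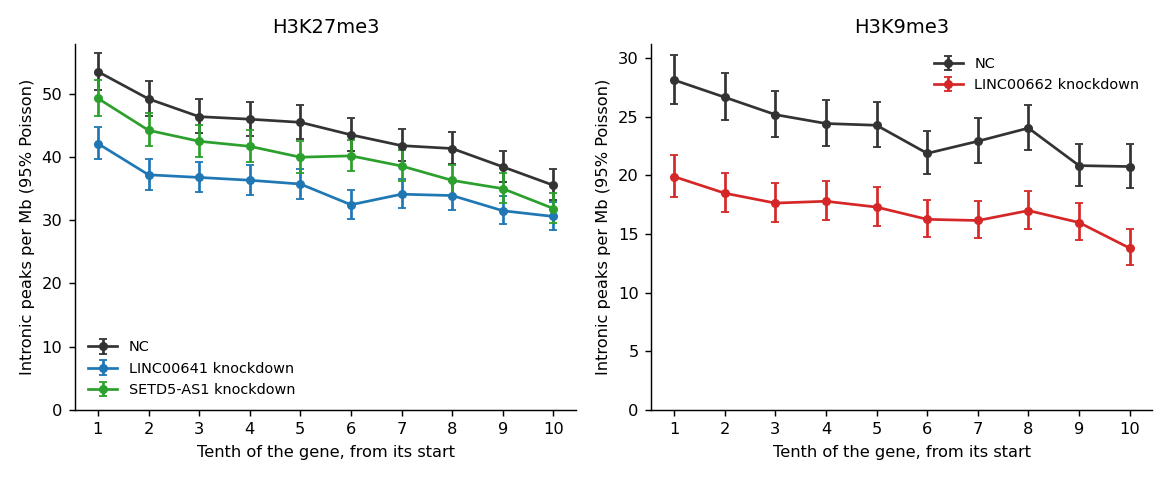
Intronic peaks per Mb (y axis, from 0) in 10 equal steps along the gene from its start (x axis), for H3K27me3 (left) and H3K9me3 (right), with 95% Poisson intervals as bars and 1 line for each list. H3K27me3 NC is at 53.5 per Mb in the first step and 35.5 in the last.

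The knockdowns were compared with NC to ask where the marks in these introns were lower or higher without the RNA. ΔLINC00641 and ΔSETD5-AS1 share the same NC list, so their values stand side by side and are not independent. ΔLINC00641 held 8722 peaks of this kind against 10981 in NC, a ratio of 0.794 (95% interval 0.772 to 0.817). ΔSETD5-AS1 held 9943, a ratio of 0.905 (0.881 to 0.930). ΔLINC00662 held 4222 H3K9me3 peaks against 5924, a ratio of 0.713 (0.685 to 0.742). All 3 knockdown lists were shorter here, and in the introns of shorter genes the ratios were 0.836, 0.978 and 0.679. Over all of chromosomes 1 to 22 they were 0.798, 0.935 and 0.723. The base level, in fragments per base, differed between the lists, with 3.85 for H3K27me3 NC against 3.78 (ΔLINC00641) and 4.43 (ΔSETD5-AS1), and 4.29 for H3K9me3 NC against 3.501 (ΔLINC00662). The part of depth in the peak numbers was not tested. With equal numbers of the strongest peaks taken over chromosomes 1 to 22, the ratios were 0.980, 0.963 and 1.03.

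Peaks were retained when a knockdown peak overlapped them by at least 1 bp. In ΔLINC00641, 52.9% of the NC peaks were retained (Wilson 95% interval 52.0 to 53.9%, 51.6% over all NC peaks of chromosomes 1 to 22). In ΔSETD5-AS1, 55.6% were retained (54.6 to 56.5%, 55% over all). In ΔLINC00662, 33.7% of the H3K9me3 peaks were retained (32.5 to 34.9%, 38% over all). The H3K27me3 shares were close to those over all peaks, and the H3K9me3 share was lower. Set against introns of shorter genes, the long genes retained 1.71 percentage points less in ΔLINC00641 (interval of the difference −3.04 to −0.38), 2.12 less in ΔSETD5-AS1 (−3.44 to −0.80) and 5.13 less in ΔLINC00662 (−6.52 to −3.74). The H3K27me3 differences depended on the choice of genes and peaks. With genes over 1000 kb set against all others, the difference turned to 3.42 more in ΔLINC00641 (1.88 to 4.96), was −0.072 in ΔSETD5-AS1 (−1.61 to 1.47) and stayed at −3.48 in ΔLINC00662 (−5.50 to −1.46). With peaks within 1 kb merged, the intervals of both H3K27me3 differences held 0 (−2.72 to 0.76 and −3.33 to 0.12), and the mean over groups of GC content was −0.55 in ΔLINC00641. Peaks found only in the knockdown list made up 32.2% of the ΔLINC00641 peaks (34.3% over all), 36.6% of the ΔSETD5-AS1 peaks (39.5% over all) and 51.2% of the ΔLINC00662 peaks (44.7% over all).

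Where a peak of each list overlapped only the other, the fold enrichments were compared. The median log2 ratio of knockdown over NC was 0.02 in ΔLINC00641 (SD over chromosomes 0.07, 4054 pairs), −0.08 in ΔSETD5-AS1 (0.09, 4259 pairs) and 0.05 in ΔLINC00662 (0.08, 1800 pairs). Each median was smaller in size than the SD over chromosomes, but in ΔSETD5-AS1 the median was below 0 on 19 of 21 chromosomes, against 7 in each of the other comparisons. In introns of shorter genes the ΔSETD5-AS1 median was −0.07. The central 80% of pairs lay between −0.48 and 0.50, −0.56 and 0.38, and −0.52 and 0.59. These values use the full lists. After both lists of a comparison were cut to the same length by strength, the medians were −0.053, −0.089 and −0.051. Their SDs over chromosomes were 0.160, 0.085 and 0.073, and they were below 0 on 16, 20 and 15 of 21 chromosomes. The sign thus turned in ΔLINC00641 and ΔLINC00662, and a median below 0 was not particular to ΔSETD5-AS1. Strong peaks were retained more often than weak ones. In the weakest of 5 groups by −log10 q, 33.7%, 36.3% and 24.7% of the peaks were retained, and in the strongest 81.9%, 83.3% and 62.0%.

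Single genes differed from these totals. Among genes with at least 10 peaks in the 2 lists together, 76 of 96 held fewer peaks in ΔLINC00641 than in NC (73% of all protein-coding genes with as many intronic peaks), 52 of 107 in ΔSETD5-AS1 (52.5%) and 215 of 253 in ΔLINC00662 (79%). These counts depended on list length. With equal numbers of the strongest peaks, 42 of 88 genes held fewer and 38 more in ΔLINC00641. In ΔSETD5-AS1 44 of 106 held fewer and 57 more, and in ΔLINC00662 108 of 236 and 104. The gene counts below use the full lists. A gene with at most 50% of its NC number was counted as low, among genes with at least 10 NC peaks. There were 7 of 79 such genes in ΔLINC00641 (12.7% of all protein-coding genes so tested), 2 of 79 in ΔSETD5-AS1 (4.45%) and 42 of 198 in ΔLINC00662 (26.9%). Genes with at least 10 knockdown peaks and at most 50% of that number in NC were 1 of 73 (1.2%), 6 of 83 (3.82%) and 1 of 145 (3.06%). In ΔSETD5-AS1 the low genes were CSMD3 and DCC, a netrin receptor. The single high gene was LRMDA in ΔLINC00641 and GRM7, a glutamate receptor, in ΔLINC00662. DCC, GRM7 and the other low and high genes with fewer than 20 peaks in the 2 lists together were named after their values were seen.

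**Figure D4:**
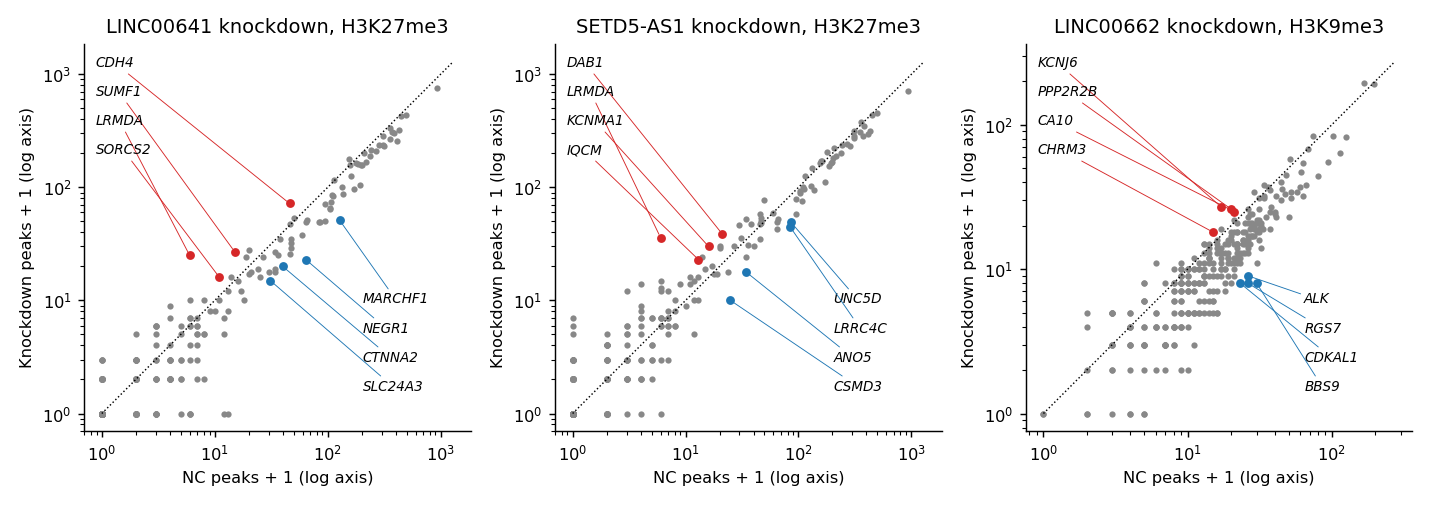
Intronic peaks + 1 per gene in NC (x axis) and in the knockdown (y axis), both on log axes, for 310 genes in the 3 comparisons, with the 4 genes of the lowest ratio in blue and the 4 of the highest in red among genes with at least 20 peaks in the 2 lists together, and the line of equal numbers dotted. LRMDA lies above the line in both H3K27me3 comparisons, with 5 NC peaks and 24 or 35 after knockdown.

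Ratios were ranked among genes with at least 20 peaks in the 2 lists together, and genes under that limit are given only where they were counted as low or high. The lowest ratios so ranked in ΔLINC00641 were in NEGR1, an immunoglobulin adhesion molecule of neurons, with 63 NC peaks and 22 (ratio 0.35, 95% interval 0.20 to 0.58), and in MARCHF1, a ubiquitin ligase of antigen-presenting cells, with 127 and 50. SLC24A3, a sodium, calcium and potassium exchanger, had 30 and 14, and the catenin CTNNA2 39 and 19. In ΔSETD5-AS1 the same 4 genes held 42, 102, 35 and 29. Of the low genes under the limit, INPP4B, a phosphoinositide phosphatase, held 12 peaks in NC and 0 in ΔLINC00641, ENSG00000285713 held 11 and 0, and DCC held 11 and 4. In ΔSETD5-AS1 INPP4B held 9 and ENSG00000285713 14. The lowest ranked ratios in ΔSETD5-AS1 were in CSMD3, a relative of CSMD1, with 24 NC peaks and 9, ANO5, an anoctamin membrane protein, with 33 and 17, LRRC4C, a netrin-G ligand, with 83 and 44, and UNC5D, a netrin receptor, with 85 and 48. DCC, under the limit, held 11 and 4 in this comparison too, a ratio of 0.364 against 0.375 in CSMD3. In ΔLINC00641 the 4 ranked genes held 15, 18, 48 and 48, so all 4 held fewer peaks than NC in both knockdown lists.

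LRMDA, a gene of melanocyte differentiation, had the highest ranked ratio in both H3K27me3 comparisons. It held 5 peaks in NC, 24 in ΔLINC00641 (ratio 4.80, 1.795 to 16.1) and 35 in ΔSETD5-AS1 (ratio 7, 2.73 to 22.9). The median −log10 q of these peaks was 2.78 and 2.95, below the 3.85 and 3.55 of all peaks of the class in the same lists. In H3K9me3 the gene held 59 peaks in NC and 36 in ΔLINC00662. The other high ranked ratios in ΔLINC00641 were in SUMF1, which activates sulfatases (14 and 26), the cadherin CDH4 (45 and 71) and the sorting receptor SORCS2 (10 and 15). In ΔSETD5-AS1 they were in the BK channel KCNMA1 (15 and 29), the reelin adaptor DAB1 (20 and 38) and IQCM (12 and 22). The other 5 high genes of ΔSETD5-AS1 were under the limit and had higher ratios than these 3. They were the cyclic AMP phosphodiesterase PDE4B (2 and 11), PCDH9 (3 and 13), the secreted guidance protein RELN (5 and 14), PALM2AKAP2 (5 and 12) and the kinase scaffold KSR2 (5 and 11).

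In ΔLINC00662 the lowest ranked ratios were in BBS9, a subunit of the ciliary BBSome, with 29 NC peaks and 7 (ratio 0.24, 0.09 to 0.56), RGS7, a regulator of G protein signalling, with 25 and 7, CDKAL1, a tRNA-modifying enzyme, with 22 and 7, and the receptor kinase ALK with 25 and 8. The highest ranked were in the GIRK channel KCNJ6 (16 and 26), PPP2R2B (19 and 25), the muscarinic receptor CHRM3 (14 and 17) and CA10, a carbonic anhydrase relative (20 and 24). The interval for KCNJ6 was 0.84 to 3.24 and held 1. GRM7, under the limit, held 5 and 10.

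Gene families were described by their counts. Of 52 long genes for cell adhesion, axon guidance and synapse organisation, 34 held H3K27me3 NC peaks, 4490 in all, with a median density of 4.99 per Mb, and TENM2 led with 495. The 18 long genes for ion channels, their subunits and neurotransmitter receptors held 1180, with a median of 9.23 per Mb, led by DPP6. The 22 genes of common fragile sites held 580, of which DPP10 had 412, and their median was 0.737. The 27 genes listed as signalling genes (kinases, phosphodiesterases, growth factors and their receptors) held 612, with a median of 0.913. Of these peaks, 269 lay in SORCS3, named above as a sorting receptor, so the total rests largely on 1 gene that this heading describes poorly. The 22 genes for transcription and RNA-binding factors held 1160, of which RBFOX1 had 925, with a median of 0.784. Over all 310 genes the median was 1.38 per Mb. In H3K9me3 NC the median densities of the same lists were 18.9, 15.3, 14.1, 15.1 and 15.7 per Mb, against 18.1 over all genes.

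Over all long genes with enough peaks, 79.2%, 48.6% and 85% held fewer peaks than NC in ΔLINC00641, ΔSETD5-AS1 and ΔLINC00662, and the counts of the lists are to be read against these shares. Against NC, 22 of 25 adhesion genes held fewer H3K27me3 peaks in ΔLINC00641 and 17 of 27 in ΔSETD5-AS1, and 38 of 45 held fewer H3K9me3 peaks in ΔLINC00662. For the channel and receptor genes the numbers were 8 of 9, 4 of 10 and 12 of 15, and for the fragile site genes 6 of 6, 4 of 6 and 20 of 20. For signalling genes they were 7 of 10, 5 of 12 and 19 of 22, and for the transcription and RNA-binding factors 4 of 5, 4 of 5 and 14 of 15. Whether a list differed from the other long genes was not tested. The fragile site genes retained 33.97% of their H3K27me3 NC peaks in ΔLINC00641, and all long genes retained 52.9%. The other gene lists retained between 49.3% and 58.6% in this comparison. In ΔSETD5-AS1 the fragile site genes retained 41.9%, against 55.6% over all long genes. For H3K9me3 in ΔLINC00662 they retained 30.2%, against 33.7%. Only 11 of the 22 fragile site genes held an H3K27me3 NC peak. In ΔLINC00641 DPP10 held 169 of the 197 retained peaks. Without it the other 21 genes retained 16.7% (28 of 168, Wilson 95% interval 11.8 to 23.03%), and DPP10 itself retained 41.0% of 412. The median GC content of the fragile site genes was 37.2%, against 38.2% over the 310 genes.

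GC content moved with the retention of peaks. With cut points that split the NC peaks of long and shorter genes together into 5 equal groups by GC content, the share retained went from 28.1% in the lowest group to 63.5% in the highest in ΔLINC00641, from 33.5 to 63.5% in ΔSETD5-AS1 and from 16.9 to 48.9% in ΔLINC00662. The ratio of peak numbers went from 0.385 to 1.18, from 0.547 to 1.16 and from 0.225 to 1.31, so the GC-richest group held more peaks in each knockdown list than in NC, and the GC-poorest fewer. The introns of shorter genes had 0.397 to 1.15, 0.625 to 1.12 and 0.190 to 1.24. The median GC content of the peaks of this class was 44.9% in H3K27me3 NC, 46.6% in ΔLINC00641 and 46.1% in ΔSETD5-AS1, and 47.2% in H3K9me3 NC and 50.5% in ΔLINC00662. A difference in GC content between libraries cannot be told apart from a difference in the mark with 1 pooled list per group.

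**Figure D5:**
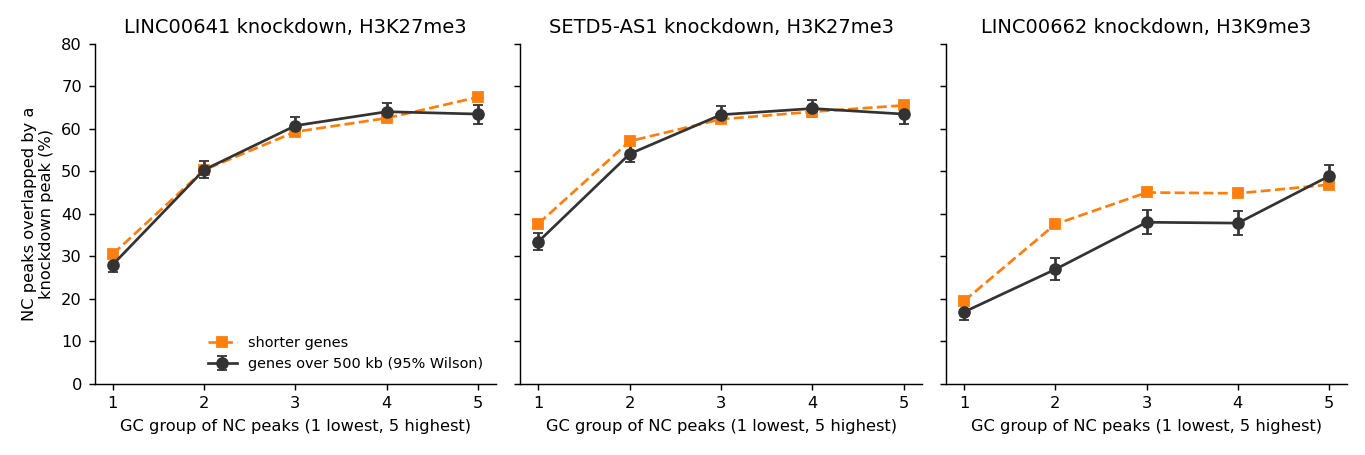
Share of NC peaks overlapped by a knockdown peak (y axis, percent) in 5 groups of GC content (x axis), with 95% Wilson intervals for the introns of genes over 500 kb (circles) and the values of shorter genes (squares). The share is lowest in the GC-poorest group in all 3 comparisons, from 16.9% to 33.5% for the long genes.

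At the level of single peaks, the lost H3K27me3 peaks with the largest −log10 q were weaker than the strongest peaks of the list. In ΔLINC00641 they lay in ASIC2 (chr17:32117877-32118347, 36 fragments, fold enrichment 6.71) and SORCS3 (chr10:106950096-106950879, 32 fragments, 6.80). In ΔSETD5-AS1 they lay in DPP6 (chr7:153982334-153982961, 35 fragments) and DPP10 (chr2:116168652-116169658, 29 fragments). A peak of the knockdown list lay 416 to 769 bp from each of these 4, and each of the 4 was overlapped by a peak of the other knockdown list. New peaks lay in MYT1L, a neuronal zinc finger factor (chr2:1865493-1865763), with an input of 7.57 times the base level, and in OPCML (chr11:132360226-132360641) for ΔLINC00641, and in OPCML (chr11:133144121-133144697) and AGBL1 (chr15:87468971-87469406) for ΔSETD5-AS1. In this order, the nearest NC peak was 3855, 2695, 735 and 308 bp away.

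For H3K9me3 the lost peaks lay in PTPRN2 (chr7:157509497-157510135, 82 fragments), with a ΔLINC00662 peak 193 bp away, and in EXOC6B, a subunit of the exocyst (chr2:72988970-72989376, 38 fragments), with the nearest peak 2987 bp away. The new peaks lay in DSCAM, an adhesion molecule of neurons (chr21:41405176-41405961, 39 fragments), and in MARCHF1 (chr4:165093792-165094228, 38 fragments). The nearest NC peak was 1587 bp away in DSCAM and 12852 bp away in MARCHF1.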

How the data were processed

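H3K27me3 and H3K9me3 were profiled by ChIP-seq in HEK293T cells, and samples were grouped by their titles. The authors' processing, per the methods and the labels, was adapter trimming (Cutadapt 3.3), alignment to hg19 (Bowtie2 2.4.2), removal of duplicates (GATK), merging of the 3 replicates in each group and peak calling against the merged input (MACS2 2.2.7.1). The authors deposited for each peak the fold enrichment, which is a ratio of ChIP fragments to local input, each with a pseudocount, its −log10 p-value, and its −log10 q-value, a score by which peaks were ranked. From these the whole number of fragments at each summit and the local input were solved for. The lowest input in a list served as its base level. The median summit of the class held 17 to 21 fragments, so single weak peaks are imprecise.

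Summits were placed in GENCODE 44 lifted to GRCh37. Density is peaks per Mb of sequence that meets the rule. With 1 pooled list per group no test was made and no p-value is given. Intervals are 95% (Wilson for shares, exact for ratios of counts, Poisson for densities), treat peaks as independent, and reflect only counting error. A peak inside overlapping long genes counts once in totals and once for each gene.

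Genes named are the 10 with the most NC peaks and the 5 densest (with at least 10 peaks) for each mark, the 4 lowest and 4 highest ratios per comparison (with at least 20 peaks in both lists together), and those without a peak. Peaks named are the strongest of a list, the least and most GC-rich of the 100 strongest, and, per comparison, 2 lost and 2 new peaks chosen by −log10 q. The sequence under some of these peaks is not reported here. The peak class, the gene lists and these rules were chosen with earlier results of these data known. The shares without DPP6 or DPP10, and most alternatives for the difference in retained share, were added after the data were seen. The alternatives tried were a stricter −log10 q (at least 5), merging of peaks within 1 kb, an overlap of 50%, genes over 1000 kb, exons of the host gene only, equal numbers of strongest peaks, leaving out the leading gene or peaks with an input over 5 times the base level, and means over groups of strength or GC content. Python 3.11.15 with numpy 2.4.6, pandas 2.3.3, scipy 1.17.1 and pysam 0.24.0 was used, and the functions were tested on simulated data.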

Additional observations from a re-analysis of the deposited data

How the results depend on the processing

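No paired analysis was possible because each group has a single list, called on its pooled replicates, and leaving out a replicate was not possible for the same reason. Of 116 alternative values for 20 results, 76 stayed within the counting interval of the reported value or within 1.5 times a reported count. Counts of genes with fewer peaks were judged by number alone, although the number of genes that reached the minimum changed. With a −log10 q of at least 5 they were 38 of 55 in ΔLINC00641, 39 of 57 in ΔSETD5-AS1 and 93 of 108 in ΔLINC00662. The reported counts were 76 of 96, 52 of 107 and 215 of 253. The paired medians and gene counts with equal numbers of strongest peaks, given above, are not among the 116. The others follow, and the cause was not tested.

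Leaving out peaks with a −log10 q under 5 gave ratios of peak number of 0.899 in ΔLINC00641 and 0.605 in ΔLINC00662, retained shares of 47.2% in ΔLINC00641, 43.4% in ΔSETD5-AS1 and 22.7% in ΔLINC00662, 38 and 93 genes with fewer peaks in ΔLINC00641 and ΔLINC00662, from fewer genes that reached the minimum, retained shares −4.81, −6.72 and −6.73 percentage points from those of shorter genes in ΔLINC00641, ΔSETD5-AS1 and ΔLINC00662, and density ratios of 3.37 for H3K27me3 and 0.848 for H3K9me3, which turned its direction. Merging peaks within 1 kb gave number ratios of 0.876, 0.990 and 0.748, a retained share of 35.8% in ΔLINC00662 and an H3K9me3 density ratio of 1.19. Genes over 1000 kb gave number ratios of 0.877 in ΔSETD5-AS1 and 0.751 in ΔLINC00662, retained shares of 56.4% and 56.5% in ΔLINC00641 and ΔSETD5-AS1, differences from shorter genes of 3.42 percentage points in ΔLINC00641, which turned its direction, −0.072 in ΔSETD5-AS1 and −3.48 in ΔLINC00662, and an H3K9me3 density ratio of 1.19. An overlap of 50% gave retained shares of 46.6%, 48.6% and 30.9%. Equal numbers of the strongest peaks gave number ratios of 0.980, 0.963 and 1.03, the last of which turned its direction, and retained shares of 57.5%, 56.9% and 38.6%. The mean over strength groups put the retained share 2.52 percentage points below that of shorter genes in ΔLINC00662 (−2.52). Without RBFOX1 the H3K27me3 density ratio was 3.29, and its mean over GC groups was 3.88. Without DPP6, 6.45% of H3K27me3 and 11.9% of H3K9me3 NC peaks overlapped the other mark, and without DPP10 the fragile site genes retained 16.7% in ΔLINC00641. Depth limits single weak peaks.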
